A study of Mus musculus with 65 samples.

Results

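The enzymes and transporters of glycolysis, together with transcripts that low oxygen is known to induce, were followed as 1 gene set through neural stem cells of young and old mice. The set was chosen by name: 35 gene symbols were matched to the count table through the GENCODE mouse annotation, which gave 36 of the table's 31057 features because Aldoa has 2 Ensembl entries. All 36 were measured in all 65 libraries of 15 groups, and every one had counts in at least some libraries.

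The cells were primary neural stem cells from the adult subventricular zone, the strip of tissue along the lateral ventricle where neural stem cells persist. They came from 5 young mice (3 to 4 months, 3 female and 2 male) and 4 old mice (25 months, 2 female and 2 male), and each group holds 1 library per animal. Every animal had the iOSKM genotype, a cassette that expresses the reprogramming factors Oct4, Sox2, Klf4 and Myc when doxycycline is given, here at 2 µg/ml. Cells were sampled in stem cell medium, which contains the growth factors EGF and bFGF, or in differentiation medium, which lacks both and replaced the first 18 h after plating. Untreated groups were stem cell medium at 18 h and differentiation at 6, 18 and 48 h, at both ages. Doxycycline groups were stem cell medium at 18 h in young cells, and stem cell medium and differentiation at 6, 18 and 48 h each in old cells. All groups carry the cassette and no cassette-free cells received doxycycline, so the drug and the factors cannot be told apart. Untreated stem cell medium at 6 and 48 h was not among the groups. In bulk RNA, fewer cells of a type and less RNA per cell cannot be told apart.

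Glycolysis splits glucose into pyruvate, which is either reduced to lactate and exported or passed to the mitochondria. Many of its steps can be run by alternative isoenzymes, and the choice differs between dividing progenitors and astrocytes, neurons or muscle. The transcription factor HIF-1 raises most of these genes when oxygen is low by binding a short core motif in their regulatory DNA, and growth factor signalling and Myc raise many of them as well.

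Promoters are printed here for 5 members as examples of how unevenly that core motif is spread over the set. Each run is the 250 bases just before a RefSeq transcription start in GRCm38.p6, on the gene's own strand, read 5′ to 3′. Capitals mark ACGTG, the core letters of the HIF-1 motif, on either strand, where overlapping matches run together.

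Ldha: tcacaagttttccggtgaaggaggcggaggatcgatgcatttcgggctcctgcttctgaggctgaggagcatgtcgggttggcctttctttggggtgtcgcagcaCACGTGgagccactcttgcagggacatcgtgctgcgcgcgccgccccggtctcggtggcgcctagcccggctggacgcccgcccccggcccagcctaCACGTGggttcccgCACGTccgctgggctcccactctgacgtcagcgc

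Ldhb: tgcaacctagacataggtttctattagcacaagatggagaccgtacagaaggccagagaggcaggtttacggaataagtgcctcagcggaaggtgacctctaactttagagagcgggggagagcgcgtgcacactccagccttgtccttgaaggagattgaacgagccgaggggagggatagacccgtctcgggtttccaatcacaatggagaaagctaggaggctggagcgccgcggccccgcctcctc

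Pgk1: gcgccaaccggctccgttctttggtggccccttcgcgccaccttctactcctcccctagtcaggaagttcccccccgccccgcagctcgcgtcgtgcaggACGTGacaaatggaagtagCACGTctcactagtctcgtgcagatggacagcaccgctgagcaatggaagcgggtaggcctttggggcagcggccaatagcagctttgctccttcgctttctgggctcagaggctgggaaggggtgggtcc

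Bnip3: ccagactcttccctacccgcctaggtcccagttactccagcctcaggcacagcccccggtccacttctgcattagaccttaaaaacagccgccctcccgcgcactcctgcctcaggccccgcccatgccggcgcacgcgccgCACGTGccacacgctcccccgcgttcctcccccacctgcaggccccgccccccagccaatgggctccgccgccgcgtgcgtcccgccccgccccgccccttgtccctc

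Slc16a3: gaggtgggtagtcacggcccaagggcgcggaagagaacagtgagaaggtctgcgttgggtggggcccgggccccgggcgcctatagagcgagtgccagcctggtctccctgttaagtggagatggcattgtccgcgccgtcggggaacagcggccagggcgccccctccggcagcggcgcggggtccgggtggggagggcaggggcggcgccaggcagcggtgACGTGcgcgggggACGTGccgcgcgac

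The printed Ldha window (chr7:46845554-46845803, + strand) held 5 matches, counting each strand. A second RefSeq start of Ldha, with the window chr7:46846832-46847081, held none. The window of its sister gene Ldhb (chr6:142507958-142508207, - strand) held none. Pgk1 (chrX:106186850-106187099, + strand), Bnip3 (chr7:138909507-138909756, - strand) and Slc16a3 (chr11:120948817-120949066, + strand) held 2 each. Among the 33 members with a window, 18 (54.5%) held ACGTG on either strand at any of their starts, against 18.5% of 27025 symbols with windows of the same length. The longer palindrome CACGTG, which contains ACGTG and is also the motif of Myc, lay in 5 of the 33 (15.2%) and in 6.86% of all symbols. Pfkm, which later rose, held 2 matches at 1 of its starts and 1 at another. The later risers Aldoc, Fbp1 and Kdm3a held none at any start, and neither did Gapdh, Tpi1 and Gpi1, which fell. A match describes letters in this window only, and any link to the direction of change was not tested. Ndrg1 and Slc2a3 are named without a sequence.

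Levels are CPM, counts scaled to library size with TMM factors over all 65 libraries. Levels of different genes are compared per kilobase, as RPKM, and any such order depends on the feature lengths deposited with the counts. In untreated young cells in stem cell medium the most abundant members per length were Gapdh (355 ± 64.3 RPKM, mean ± SD, n = 5), Pkm (353 ± 55.9), Aldoa (342 ± 72.5), Pgk1 (291 ± 81.2) and Ldha (279 ± 66.0). Neighbours in this order lay within 1 SD of each other. The lowest per length were Fbp1 (0.0658 RPKM), Car9 (0.278), P4ha2 (0.436), Ndrg1 (0.769), Eno2 (1.10) and Pfkfb4 (1.27). Car9, a carbonic anhydrase widely used as a hypoxia marker, had counts in 49 of 65 libraries and never exceeded 2.32 CPM. In untreated old cells at 18 h of differentiation all 4 Car9 counts were 0. In these libraries 3 counts correspond to 0.0276 to 0.0521 CPM. Small counts are mostly even, so 3 counts stand for fewer than 3 fragments, and the level that a 0 allows is higher than this.

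Libraries held 56483730 to 116835539 counts. All 8 neural stem cell and astrocyte markers had counts in every library. Their ranges differed widely, with Sox2 at 216 to 385 CPM, Nes at 84.1 to 1378, Slc1a3 at 451 to 4199, Aqp4 at 1.60 to 832 and Gfap at 0.359 to 1248 CPM. The sum of the 8 had medians of 3443 CPM in untreated young stem cell medium and 3860, 4632 and 6518 CPM at 6, 18 and 48 h of differentiation. Markers of other cell types were mixed. Of 5 microglial markers Cx3cr1 was at 0 in 46 of 65 libraries, Aif1 in 23 and Tmem119 in 6, while P2ry12 (0.136 to 3.08 CPM) and Csf1r (4.23 to 11.2 CPM) had counts in every library. Of 4 endothelial markers Cldn5 was at 0 in 34 and Cdh5 in 15, while Pecam1 (0.0449 to 0.506 CPM) and Kdr (1.08 to 10.2 CPM) never were. Of 6 pericyte and fibroblast markers Dcn was at 0 in 40, Lum in 48, Col1a2 in 12 and Pdgfrb in 4, while Rgs5 (0.0588 to 0.738 CPM) and Cspg4 (56.4 to 308 CPM, also a gene of oligodendrocyte progenitors) never were. A summed level of 4 proliferation genes had a median of 926 CPM in young stem cell medium, 1324 CPM at 6 h, 27.7 CPM at 18 h and 15.3 CPM at 48 h of differentiation. A summed level of 7 oligodendrocyte lineage genes, including Olig2 (454 to 1021 CPM over all libraries), had medians of 904, 1003, 1415 and 3192 CPM at the same stages. A summed level of 6 neuroblast and neuron genes had medians of 23.7, 81.9, 141 and 242 CPM at those stages. These sums moved with the course of differentiation, and their part in the changes below was not tested. Of the ependymal markers Tmem212 was at 0 in 62 libraries and Ccdc153 in 1, while Foxj1 (7.30 to 71.6 CPM) never was.

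**Figure D1:**
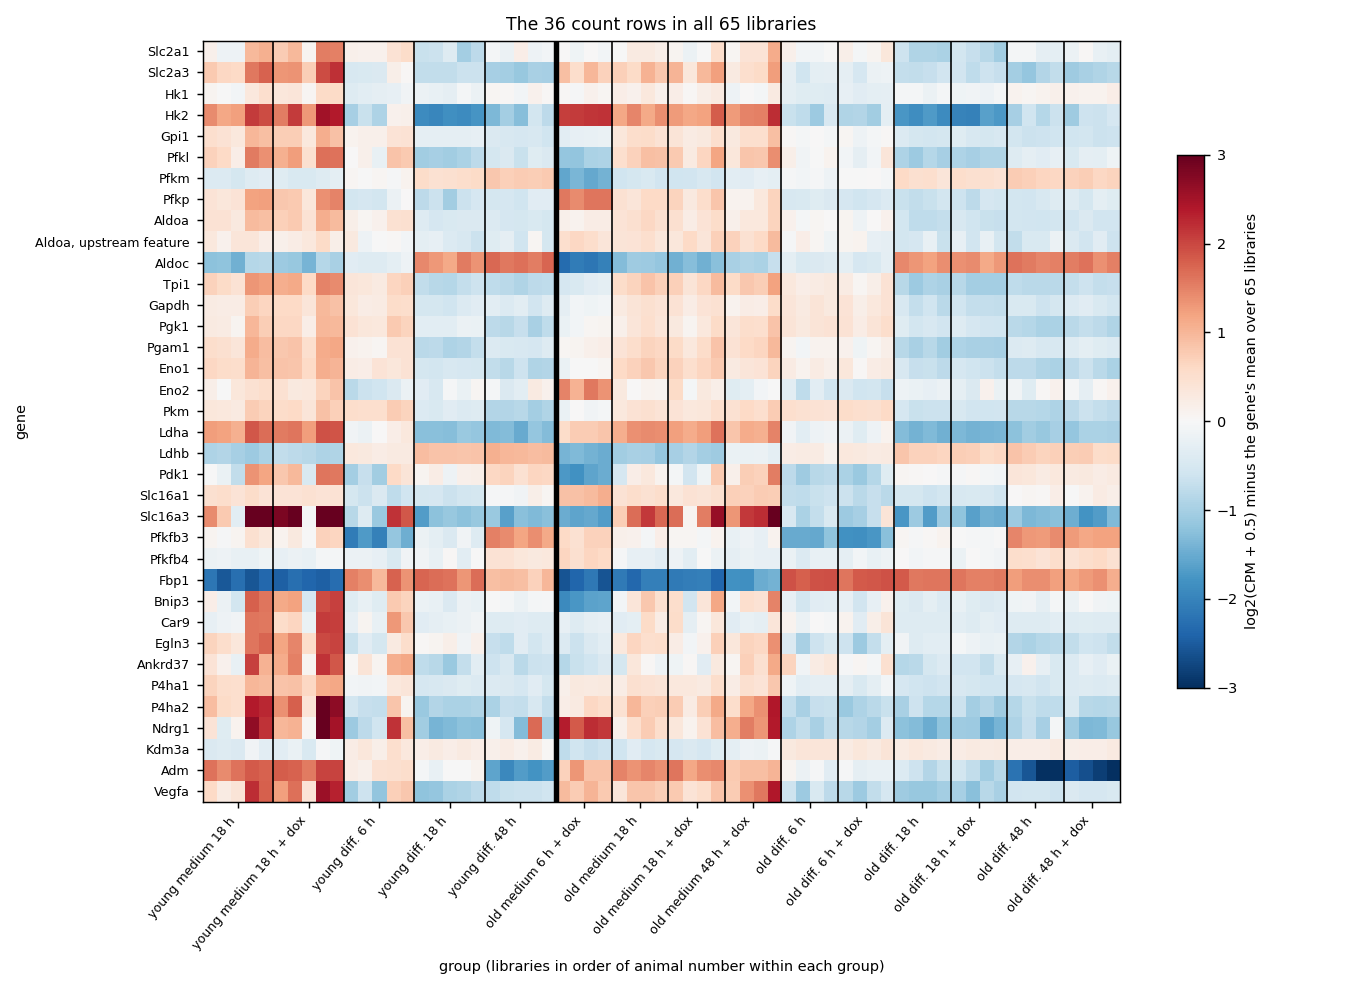
Heat map of the 36 count rows (vertical axis, by role) in all 65 libraries (horizontal axis, by group), coloured by log2(CPM + 0.5) minus the gene's mean. Ldhb, Aldoc, Pfkm and Fbp1 are low in stem cell medium and high in differentiation, while Ldha, Hk2, Slc2a3 and Adm are the reverse.

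The first question was what withdrawal of EGF and bFGF did to the pathway. Differential expression was tested with edgeR's quasi-likelihood test over all expressed genes, and a gene is called when its Benjamini-Hochberg adjusted p is under 0.05. Between stem cell medium and 18 h of differentiation, 27 of 35 tested members fell and 5 rose in young cells, while over all genes tested 40.3% were lower and 42.3% higher (82.6% called). In old cells 27 fell and 6 rose of 35, against 40.5% lower and 41.5% higher (82% called). The share called is near the background. The median log2 difference of the members was -1.03 in young and -0.999 in old cells, and the median over all genes was 0.03 at both ages. This comparison spans the change of medium and the time since plating together.

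The glucose transporters both fell. Slc2a1, the basal glucose carrier, changed by -1.14 ± 0.28 in young cells (log2 ± SE, edgeR adjusted p = 0.00447) and Slc2a3, the high-affinity carrier, by -1.86 ± 0.26 (adjusted p = 8.64e-05). Without young animals 4 and 5, which stood apart in stem cell medium, the Slc2a1 difference was -0.48. In old cells the differences were -1.002 ± 0.08 and -1.47 ± 0.09.

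Of the 10 rows of upper glycolysis, from glucose to triose phosphate, 8 fell and 2 rose at both ages. Hexokinase 2, the inducible enzyme that traps glucose in the cell, had the steepest fall of the enzymes. Hk2 (chromosome 6, 82725025 to 82774454, mm10) lay at 19.7, 16.5, 17.3, 31.9 and 28.9 CPM in the 5 young stem cell medium libraries and at 1.55, 1.45, 1.63, 1.58 and 1.74 CPM after 18 h of differentiation. The groups do not overlap, and the log2 difference was -3.81 ± 0.21 (edgeR adjusted p = 9.15e-09), against -3.39 ± 0.10 in old cells. Hexokinase 1, the constitutive isoenzyme, moved by only -0.32 ± 0.10 (adjusted p = 0.0126) and had overlapping groups. Pfkl, the liver-type subunit of phosphofructokinase, fell by 1.90 on the log2 scale, and Tpi1, triose phosphate isomerase, by 1.61.

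The 2 risers of upper glycolysis were isoenzymes. Aldoc (chromosome 11, 78322968 to 78327781), the aldolase typical of astrocytes, lay at 191, 194, 164, 247 and 252 CPM in young stem cell medium. It reached 351, 341, 344, 363 and 401 CPM at 6 h, and 1216, 1108, 991, 1324 and 1141 CPM at 18 h of differentiation. No group overlapped the one before, and the rise to 18 h was 2.50 ± 0.12 (adjusted p = 2.9e-09) in young and 2.53 ± 0.06 in old cells. Pfkm, the muscle-type phosphofructokinase subunit, rose by 0.99 ± 0.04 and 1.06 ± 0.05.

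All 6 genes of lower glycolysis, which turn triose phosphate into pyruvate and yield ATP, fell at both ages. Pgam1, phosphoglycerate mutase, had the largest difference in young cells (-1.49 ± 0.14), followed by the enolase Eno1 (-1.21 ± 0.08), Gapdh (-0.87 ± 0.11), the pyruvate kinase Pkm (-0.85 ± 0.09), the phosphoglycerate kinase Pgk1 (-0.73 ± 0.16) and the neuronal enolase Eno2 (-0.51 ± 0.14).

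At the lactate step the 2 lactate dehydrogenase subunits crossed. Ldha (chromosome 7, 46841475 to 46855627), the subunit that favours making lactate, lay at 814, 786, 717, 1228 and 1079 CPM in young stem cell medium. It was down to 313, 301, 341, 391 and 421 CPM at 6 h and to 142, 142, 139, 156 and 152 CPM at 18 h of differentiation. Every library of a later stage was below every library of the earlier one.

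Ldhb (chromosome 6, 142490249 to 142507957), the subunit that favours using lactate, went the other way, from 144, 148, 136, 127 and 140 CPM to 337, 335, 320, 327 and 329 CPM at 6 h. By 18 h it stood at 513, 494, 497, 484 and 493 CPM. The 18 h differences were -2.62 ± 0.14 for Ldha (adjusted p = 1.58e-08) and 1.88 ± 0.04 for Ldhb (adjusted p = 3.66e-14), with -2.66 ± 0.07 and 1.80 ± 0.05 in old cells.

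Slc16a3, the carrier that exports lactate from glycolytic cells, fell by 4.26 ± 0.92 on the log2 scale (adjusted p = 0.00222) and by 3.37 ± 0.37 in old cells. Without young animals 4 and 5 the young difference was -2.44. Slc16a1, the carrier that works in both directions, fell by 1.002 ± 0.04. Pdk1, a kinase that keeps pyruvate out of the mitochondria, was not called (-0.40 ± 0.40, adjusted p = 0.374), nor without those animals, where its difference was 0.40.

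**Figure D2:**
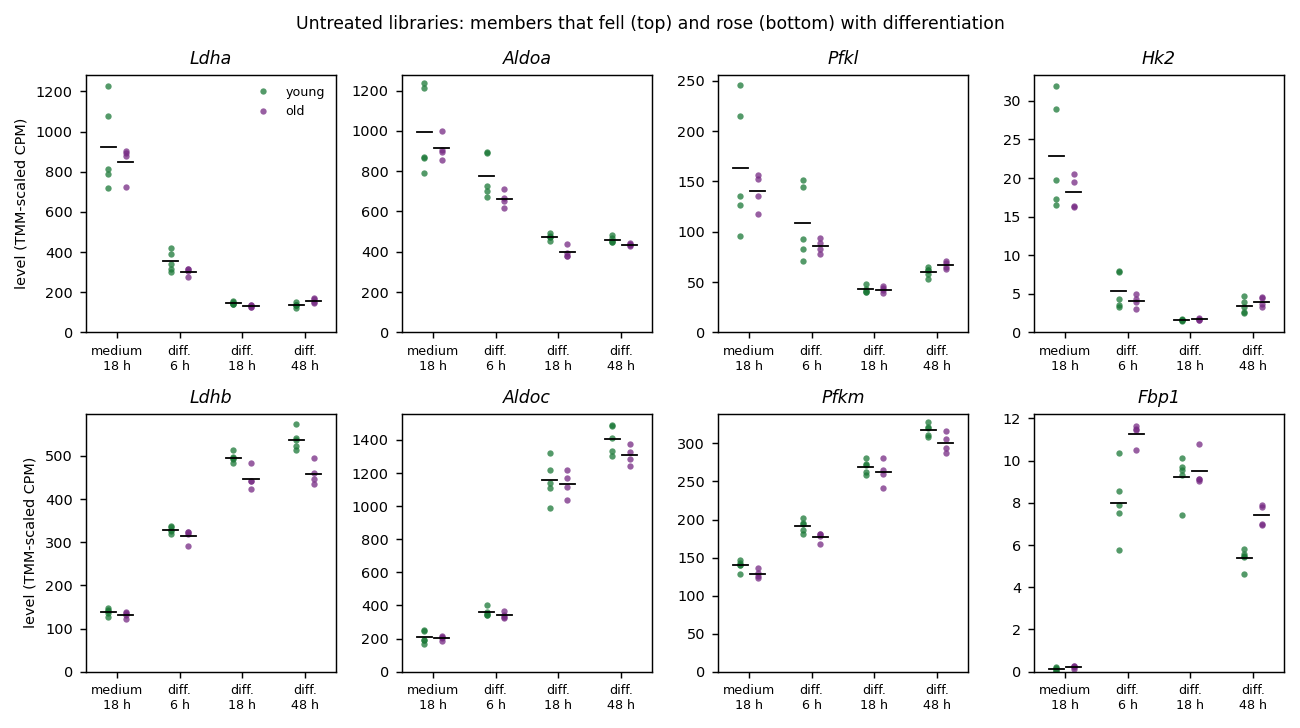
CPM (vertical axis, linear from 0) of 8 members in untreated libraries at 4 stages (horizontal axis), 1 point per library, young green and old purple, bars at group means. Ldha, Aldoa, Pfkl and Hk2 in the top row go down from stem cell medium to 18 h of differentiation, and Ldhb, Aldoc, Pfkm and Fbp1 in the bottom row go up.

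Among the 3 regulators, Fbp1 encodes the gluconeogenic fructose bisphosphatase that opposes phosphofructokinase. Fbp1 (chromosome 13, 62864753 to 62888282) was near 0 in young stem cell medium, at 0.205, 0.0444, 0.162, 0.0331 and 0.115 CPM. At 6 h of differentiation it stood at 8.56, 7.87, 5.75, 10.4 and 7.52 CPM. The groups are far apart, with a fitted log2 difference of 6.14 ± 0.30 (edgeR adjusted p = 1.61e-09) that rests on a handful of counts in stem cell medium. Pfkfb3, which makes the allosteric activator of phosphofructokinase, dipped and returned: it lay at 40.0, 37.1, 40.1, 53.5 and 48.2 CPM in stem cell medium, between 8.42 and 16.7 CPM at 6 h, and at 33.7, 30.9, 28.1, 35.5 and 29.1 CPM at 18 h. At 48 h it reached 84.7 to 109 CPM, above every young untreated library of the earlier stages. Pfkfb4 stayed between 5.01 and 10.3 CPM in untreated libraries.

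Of the hypoxia targets outside glycolysis, 7 of 9 tested fell and 1 rose in young cells, and 8 of 9 fell and 1 rose in old cells, Car9 being too low to test. Vegfa, the angiogenic growth factor, fell by 2.25 ± 0.43 (adjusted p = 0.00106), the differentiation-related gene Ndrg1 by 3.84 ± 0.81, the collagen prolyl hydroxylase subunit P4ha1 by 1.15 ± 0.10, and Adm, the peptide adrenomedullin, by 1.68 ± 0.08. P4ha2 and Ankrd37 also fell, from low levels. Egln3, an oxygen-sensing hydroxylase that marks HIF for destruction, fell by 1.005 ± 0.29. Kdm3a, a histone demethylase, was the riser at both ages (0.61 ± 0.05 and 0.78 ± 0.05). Bnip3, a mitophagy receptor, was called in old cells (-0.78 ± 0.17, adjusted p = 0.00288) and not in young cells (-1.11 ± 0.48, adjusted p = 0.0579), where its libraries were spread widely. Without young animals 4 and 5 the young differences were -1.49 for Vegfa, -2.17 for Ndrg1, -0.39 for Egln3 and -0.10 for Bnip3, and the first 3 of these were still called.

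The first 6 h held only some of these changes. At 6 h of differentiation 17 of 36 members had fallen and 5 had risen in young cells (36.5% and 38.4% of all genes, 74.9% called), with 25 and 5 in old cells (37.4% and 38.2%, 75.5% called). Gapdh (-0.03 ± 0.11), Pgk1 (0.03 ± 0.18) and Pkm (0.13 ± 0.10) were not called at 6 h in young cells. With the animal as a block, edgeR called 7 more members of this step (77.4% of all genes called): Pkm was higher (0.14, adjusted p = 0.00784), and Pfkl (-0.56), Tpi1 (-0.38), Pdk1 (-0.67), Slc16a3 (-1.63), Ndrg1 (-1.08) and Vegfa (-1.31) were lower. From 6 to 18 h, 21 of 35 fell and 5 rose in young cells (32.4% and 34% of all genes, 66.5% called), led downwards by Slc16a3, Hk2, Pfkl, Ldha, Tpi1 (-1.22) and Pgam1 (-1.06). With the block the Slc16a3 step was not called (adjusted p = 0.066). Old cells gave 22 lower and 10 higher of 35 (33.6% and 34.1%, 67.7% called).

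The 19 core genes of glycolysis took 0.928 ± 0.186% of all counts in young stem cell medium, 0.838 ± 0.0761% at 6 h, 0.603 ± 0.0179% at 18 h and 0.585 ± 0.0172% at 48 h (n = 5 each). Young animals 4 and 5 stood at 1.17 and 1.08% in stem cell medium and at 0.925 and 0.916% at 6 h. Animals 1 to 3 differed little between these 2 stages, at 0.824, 0.805 and 0.758% and then 0.790, 0.763 and 0.797%.

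From 18 to 48 h of differentiation the set split. In young cells 16 of 34 members rose and 8 fell, against 27.7% and 29.2% of all genes (56.9% called). In old cells 17 of 35 rose and 8 fell, against 28% and 28.5% (56.5% called). Pfkfb3 had the largest rise (1.60 ± 0.08, adjusted p = 2.3e-08, in young cells), and Slc2a1 (0.64), Slc16a1 (0.55), Pfkfb4 (0.50), Pdk1 (0.49) and Pfkl (0.46) also rose. Hk2 rose by 1.08 from a low level of under 2 CPM. Lower glycolysis did not follow: Pgk1 (-0.56), Pkm (-0.51) and Eno1 (-0.29) went on falling and Pgam1 (0.35) turned up. Adm had the largest fall (-1.79 ± 0.08).

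Isoenzyme shares per length put these changes side by side, and their size depends on the deposited feature lengths. Ldhb supplied 24.7 ± 4.77% of lactate dehydrogenase transcripts in young stem cell medium, 66.4 ± 3.43% at 6 h, 87.7 ± 0.724% at 18 h and 89.3 ± 1.04% at 48 h of differentiation. The deposited lengths were 3310 bases for Ldha and 1570 for Ldhb. Without length scaling the 2 genes overlapped at 6 h in young cells, Ldha at 301 to 421 CPM and Ldhb at 320 to 337 CPM. Aldoc went from 15.9 ± 0.623% of the Aldoa and Aldoc total to 29.4 ± 1.79%, 68.4 ± 2.19% and 73.1 ± 1.37%. The minor isoenzyme of both pairs in stem cell medium was the major one at 18 h.

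Pfkm went from 61.6 ± 8.07% of phosphofructokinase transcripts to 91.6 ± 0.487% at 18 h while Pfkl went from 34.4 ± 7.55% to 7.27 ± 0.377%. Hk2 went from 15.1 ± 2.19% of the Hk1 and Hk2 total to 1.59 ± 0.131%. The young groups in these 18 h comparisons do not overlap (exact two-sided permutation p = 0.00794 each, the smallest that 5 against 5 can give). After adjustment over 176 such share tests no value passed, the smallest adjusted p being 0.0565. Per length, Aldoc (430.5 RPKM) and Ldhb (342.6 RPKM) were the 2 highest members at 48 h in young cells, ahead of Gapdh (200.6 RPKM). The deposited lengths of these genes were 3263, 1570 and 4133 bases. In CPM Aldoc (1302 to 1491) was still above Gapdh (735 to 880), but Ldhb (513 to 575) was below it.

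**Figure D3:**
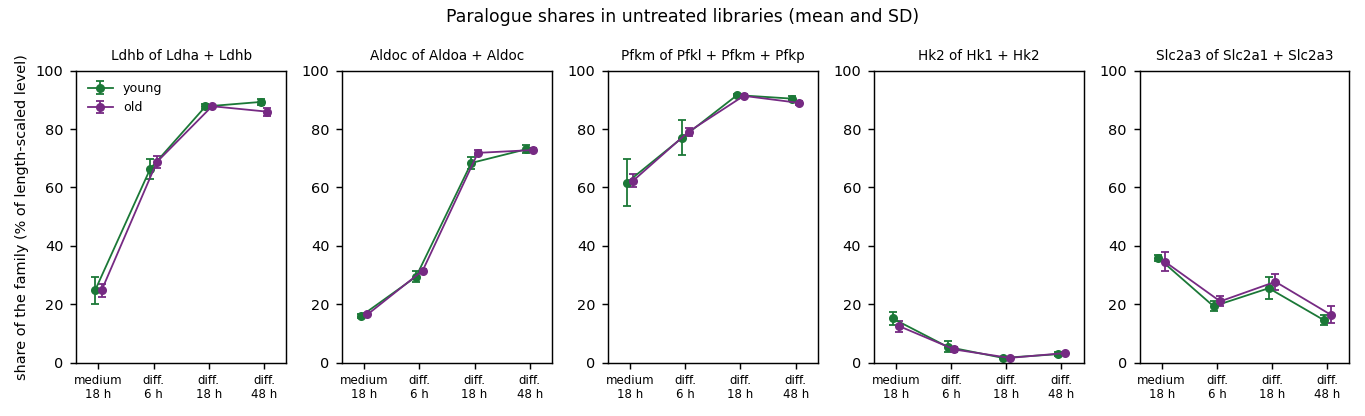
Share per length (%, vertical axis) of 1 isoenzyme in its family at each stage (horizontal axis), mean with SD bars, in untreated young (green) and old (purple) cells. The Ldhb share goes from 24.7% to 87.7% between stem cell medium and 18 h of differentiation in young cells, and the Hk2 share from 15.1% to 1.59%.

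The rest of the pathway was read from other gene lists for the same young comparison of 18 h of differentiation with stem cell medium. All 7 pentose phosphate genes fell, Tkt (transketolase) by 1.12 ± 0.04. In the citrate cycle 11 of 15 fell and 3 rose, with Idh3a (isocitrate dehydrogenase) at -1.16 ± 0.04. Among 13 genes of pyruvate entry into mitochondria 7 rose and 3 fell, with Pcx (pyruvate carboxylase) at 2.79 ± 0.08, Pdk4 at 2.56 ± 0.16, Pdk2 at 1.94 ± 0.07 and Dlat at -0.88 ± 0.04.

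Glycogen genes were divided, 4 higher and 3 lower of 10, and Pygb, the brain glycogen phosphorylase, rose by 2.69 ± 0.09. Other glycolysis isoenzymes and regulators gave 8 higher and 7 lower of 15, with Slc2a8 at 1.15 ± 0.06 and Tigar at -1.11 ± 0.05.

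Within the HIF system 5 of 10 rose and 3 fell: Vhl, the ubiquitin ligase subunit that removes HIF, rose by 0.87 ± 0.05 and Egln1, the main oxygen-sensing hydroxylase, fell by 0.67 ± 0.13. Other hypoxia targets gave 18 lower and 9 higher of 29, from Loxl2 (-3.95 ± 0.64) and Tfrc (-2.31 ± 0.06) to Mxi1 (1.56 ± 0.11). In old cells the lists counted 7 of 7 lower (pentose phosphate), 11 lower and 2 higher of 15 (citrate cycle), 6 higher and 5 lower of 13 (pyruvate entry), 5 higher and 3 lower of 10 (glycogen), 5 higher and 3 lower of 10 (HIF system), 8 higher and 7 lower of 15 (other glycolysis isoenzymes and regulators), and 17 lower and 10 higher of 29 (other hypoxia targets). Over all genes 40.3% were lower and 42.3% higher in young cells, and 40.5% and 41.5% in old cells.

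The media were also compared at the same labelled hour in old cells with doxycycline. At 18 h, 26 of 35 members were lower and 5 higher in differentiation medium (40% and 41.4% of all genes, 81.5% called), and at 48 h 24 were lower and 7 higher (37.1% and 39.8%, 76.9% called). At 6 h the members were divided, 15 lower and 17 higher of 35 (39.3% and 41.4%, 80.7% called). Fbp1 (6.75), Aldoc (1.80), Ldhb (1.71), Bnip3 (1.56), Pfkm (1.47) and Pfkl (1.09) had the largest positive differences at 6 h among members with at least 5 CPM in the higher group, and Ndrg1 (-3.60), Hk2 (-2.99), Pfkfb3 (-2.28), Eno2 (-2.10) and Pfkp (-2.07) the most negative. Below 5 CPM, P4ha2 (-3.30), Slc16a3 (1.47) and Ankrd37 (1.14) were also called. The median log2 difference of the members was -0.03 at 6 h, -0.88 at 18 h and -1.01 at 48 h. The hours in the 2 media may not count from the same event, since differentiation began 18 h after plating and the labels do not say from when the stem cell medium hours run.

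Levels in stem cell medium also differed between hours, in groups that all had doxycycline. Untreated cells were sampled there only at 18 h, so time in the medium and time with doxycycline cannot be told apart. In old cells with doxycycline, 21 of 35 members rose and 7 fell from 6 to 18 h (30.6% and 30.7% of all genes, 61.3% called), with a member median of 0.49 and an all-gene median of 0.00. Slc16a3 lay at 1.14, 1.05, 1.09 and 0.939 CPM at 6 h and at 14.2, 4.41, 12.9 and 28.0 CPM at 18 h, a difference of 3.84 ± 0.57 (edgeR adjusted p = 0.000728). The 6 h libraries are tight and all below the 18 h ones, which vary several-fold. Bnip3 (2.26 ± 0.35), Pfkl (1.85 ± 0.19), Pdk1 (1.81 ± 0.29), Tpi1 (1.10 ± 0.11) and Pfkm (0.94 ± 0.04) rose as well, while Ndrg1 (-1.83), Eno2 (-1.17), the platelet-type phosphofructokinase subunit Pfkp (-0.95), Pfkfb4 (-0.78), Hk2 (-0.72) and Pfkfb3 (-0.56) fell.

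Pfkp and Hk2 had larger shares at 6 h than at 18 h: Pfkp made up 15.7 ± 1.29% of phosphofructokinase transcripts at 6 h and 4.01 ± 0.307% at 18 h, and Hk2 22.0 ± 0.635% and 13.3 ± 2.07% of its pair. The core genes took 0.588 ± 0.0315% of counts at 6 h, 0.853 ± 0.0778% at 18 h and 0.918 ± 0.132% at 48 h. From 18 to 48 h 9 of 36 rose and 2 fell (26% and 26.3% of all genes, 52.3% called), and with the animal as a block 13 rose and 5 fell (28.6% and 28.6% of all genes, 57.2% called). Ldhb rose by 0.79 ± 0.04, Aldoc by 0.48 ± 0.07 and Ndrg1 by 1.36 ± 0.35, and Adm fell by 0.51 ± 0.09. The proliferation sum had medians of 854, 929 and 1591 CPM at 6, 18 and 48 h.

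In stem cell medium the animals differed from each other more than at 18 or 48 h of differentiation: the median coefficient of variation of the members, the scarce Car9 left out, was 7.57% to 23.1% in the 6 stem cell medium groups and 5.54% to 7.37% in the 6 later differentiation groups. Young animals 4 and 5, 1 male and 1 female, were the 2 highest of 5 in 31 of 36 members without doxycycline, in 31 of 36 with it, and in 28 of 36 at 6 h of differentiation, but in 11 at 18 h and 6 at 48 h. For the 10 hypoxia targets the counts were 10, 10, 9, 4 and 1. Here and below, counts of the highest animals cover members only, with no count over all genes beside them. The genes below were singled out after these values were seen.

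Slc16a3 (chromosome 11, 120948480 to 120960868) lay at 11.9, 7.46, 3.22, 58.6 and 58.5 CPM in animals 1 to 5 without doxycycline, and at 32.1, 46.9, 3.94, 92.8 and 86.0 CPM with it. At 6 h of differentiation the same animals gave 2.10, 3.07, 1.64, 20.3 and 16.4 CPM, and at 18 h all 5 lay between 0.954 and 1.62 CPM. Animals 4 and 5 stood apart until 18 h of differentiation and not after it.

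Bnip3 (41.3, 31.4, 24.4, 125 and 109 CPM), Pdk1 (39.6, 35.2, 24.1, 103 and 92.5 CPM) and Vegfa (90.0, 70.3, 78.0, 278 and 206 CPM) had the same 2 animals on top in untreated stem cell medium. The coefficient of variation of 23.1% is that of this group, and the old untreated group of the same medium had 8.73%.

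In untreated stem cell medium animals 4 and 5 had 91646444 and 106806872 counts (68788580 to 94637228 in the other 3), 1.38% and 1.52% mitochondrial counts (1.26 to 1.57%), and proliferation sums of 938 and 651 CPM (886 to 969 CPM). In stem cell medium at 18 h old animal 4 was the highest of 4 in 29 of 36 members with doxycycline and 2 without. In this medium it was highest in 17 of 36 at 6 h and 32 of 36 at 48 h, both with doxycycline and with no untreated group beside them. Its counts with and without doxycycline were 25 and 10 at 6 h, 5 and 6 at 18 h, and 9 and 15 at 48 h of differentiation. The labels name no culture batch, and what these animals share was not tested.

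Without animals 4 and 5, 27 of 35 members fell and 5 rose from stem cell medium to 18 h of differentiation (79.3% of all genes called), as many as with them, and the member median moved from -1.03 to -0.79. To 6 h, 22 fell and 8 rose (69.8%), and Slc2a1 was then called higher (0.20, adjusted p = 0.0485).

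**Figure D4:**
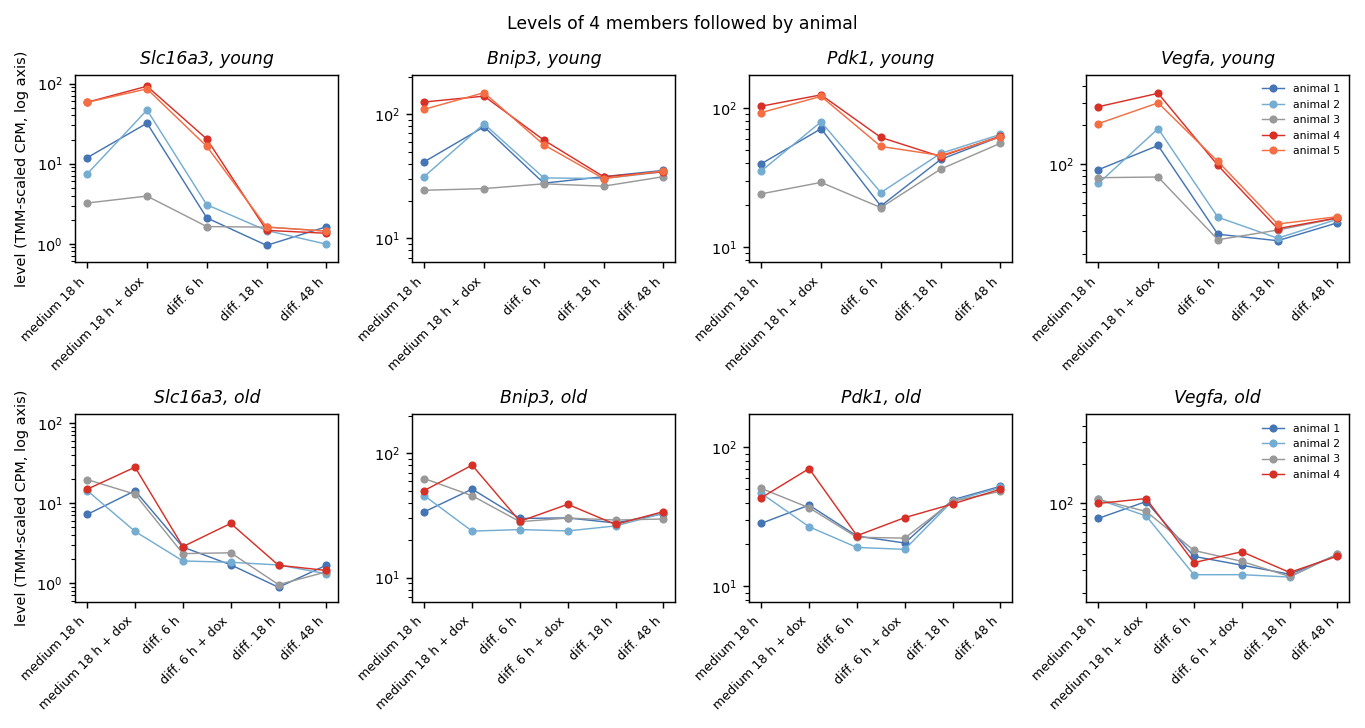
CPM on a log axis (vertical) of Slc16a3, Bnip3, Pdk1 and Vegfa by group (horizontal axis), each line 1 animal, young and old in separate panels. Young animals 4 and 5 lie above the other 3 in stem cell medium and at 6 h of differentiation, and close to them at 18 h.

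The second question was whether age mattered. In untreated stem cell medium edgeR called 0 of 36 members between old and young cells (5.95% of all genes called), with 3 at an unadjusted p under 0.05 and 2 called by DESeq2, a second count-based test. At 6 h of differentiation 1 of 36 was called, Adm, lower in old cells (1.43% of all genes called, 0.721% lower). This call was lost without any 1 of several libraries: old animals 2, 3 and 4 and young animals 3 and 5. The Adm difference was -0.50. Here and below, counts by DESeq2, at an unadjusted p or without 1 library or animal are given without a share over all genes. They cannot be set against a background.

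At 18 h of differentiation 6 of 34 members were lower and 1 higher in old cells, against 2.34% and 2.85% of all genes (5.19% called). Adm (chromosome 7, 110627661 to 110629820) lay at 21.8, 19.3, 22.6, 22.6 and 24.5 CPM in young and at 17.0, 14.6, 12.2 and 14.2 CPM in old cells. The groups do not overlap, and the difference was -0.60 ± 0.09 (adjusted p = 0.00357). Pfkfb3 was the member higher in old cells, at 39.5, 37.1, 39.2 and 40.6 CPM against 33.7, 30.9, 28.1, 35.5 and 29.1 CPM (0.33 ± 0.06, adjusted p = 0.00747).

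Glycolytic enzymes made up 4 of the lower calls: Aldoa (-0.24 ± 0.05), the glucose phosphate isomerase Gpi1 (-0.22 ± 0.04), Pgk1 (-0.22 ± 0.05) and Pkm (-0.19 ± 0.05). The sixth was Egln3 (-0.34 ± 0.07). The count was 11 without old animal 1 and 4 without old animal 3, and 5 without young animals 4 and 5 (3.62% of all genes), when Pgk1 and Pkm were not called.

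At 48 h of differentiation 4 of 35 were lower and 2 higher in old cells, against 5.02% and 5.63% of all genes (10.6% called). Adm was again lower, at 4.52, 3.43, 2.34 and 2.22 CPM in old against 7.29, 5.54, 6.75, 6.20 and 6.76 CPM in young cells (-1.05 ± 0.20, adjusted p = 0.0111). Pdk1 (-0.28 ± 0.04), Egln3 (-0.34 ± 0.09) and Ldhb (-0.22 ± 0.04) were lower, and Fbp1 (0.47 ± 0.08) and the low Ankrd37 (0.68 ± 0.19) higher. Fbp1 lay at 7.01, 7.90, 7.79 and 6.95 CPM in old and 5.47, 5.59, 5.45, 4.61 and 5.81 CPM in young cells. Without young animals 4 and 5 the count was 9 (15.7% of all genes).

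The oligodendrocyte lineage sum differed with age at the same hours, with medians of 1753 CPM in old against 1415 CPM in young cells at 18 h and 4705 against 3192 CPM at 48 h and no overlap of the groups at either hour. The neuroblast and neuron sum lay at 93.1 to 119.7 CPM in old and 67.7 to 88.3 CPM in young cells at 6 h, and its groups overlapped at 18 and 48 h. The part of these sums in the age differences was not tested. Whether the differentiation steps themselves differed between ages was tested as an interaction, and edgeR called 0 members for the steps to 6 h, 18 h and 48 h (0.0454%, 0% and 0% of all genes), with 0, 3 and 8 at an unadjusted p under 0.05 and 0, 0 and 2 called by DESeq2. With the animal as a block the step from 18 to 48 h differed for Pkm (0.24), Ldha (0.38) and Pfkfb3 (-0.28), old minus young (0.334% of all genes called).

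The third question was the effect of doxycycline. Without pairing, edgeR called 0 members in each of the 5 matched comparisons, while 0.0361% of all genes were called in young stem cell medium, 0.018% in old stem cell medium, and 0.0294%, 0.0118% and 0.0296% in old differentiation at 6, 18 and 48 h. Members at an unadjusted p under 0.05 numbered 1, 1, 0, 0 and 8 in that order, and DESeq2 called 0 in each. With the animal as a block, which compares the 2 libraries of each animal, 17 of 36 members were higher and 0 lower in young stem cell medium (6.85% and 6.74% of all genes, 13.6% called). The same fit called 1 of 36 in old stem cell medium (11.2% of all genes).

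Gapdh lay at 1283, 1272, 1275, 1814 and 1698 CPM in untreated young animals 1 to 5 and at 1647, 1658, 1401, 2123 and 2014 CPM with doxycycline. It was higher with doxycycline in 5 of 5 animals, although the groups overlap, and the blocked difference was 0.27 ± 0.03 (adjusted p = 0.000117). Ldha was likewise higher in 5 of 5 animals (0.23 ± 0.04, adjusted p = 0.00238).

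All 6 genes of lower glycolysis were among the 17, with Slc2a3 (0.44), Hk1, Pfkl, Aldoa, Tpi1, Ldhb, P4ha1, P4ha2, Kdm3a and Adm. Slc16a3 (1.11 ± 0.39, adjusted p = 0.17) and Vegfa (0.58, adjusted p = 0.197) were not called. The 4 proliferation genes were all lower in the same fit (median -0.35), and their part in the result was not tested. The count was 8 without animal 5 and 11 without animals 4 and 5 (11.1% of all genes), and without pairing it was 1 when those animals were left out (2.22% of all genes).

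Counted animal by animal, 32, 33, 25, 33 and 33 of 36 members were higher with doxycycline in young animals 1 to 5, and 29, 4, 6 and 32 in old animals 1 to 4. For these members the old animals were thus divided, 2 up and 2 down. No such count over all genes is given, and members of 1 pair of libraries are not independent of each other. In old cells the blocked fit called Aldoc lower in stem cell medium (-0.19), Pfkfb3 lower at 6 h of differentiation (-0.23, 3.67% of all genes called), no member at 18 h (0.883%), and Pfkfb3 (-0.17) and Ndrg1 (-1.09) lower at 48 h (4.15%). Leaving out 1 old animal from this fit left 0 calls at 6 h without animal 1, 2 or 3, and at 48 h 4 calls without animal 2, 1 without animal 3 and 0 without animal 4. Whether the doxycycline effect differed between ages was tested directly: without pairing edgeR called 0 members, with 0 at an unadjusted p under 0.05 and 0 by DESeq2, and with the block Aldoc alone (-0.21, old minus young, 3.43% of all genes called).

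**Figure D5:**
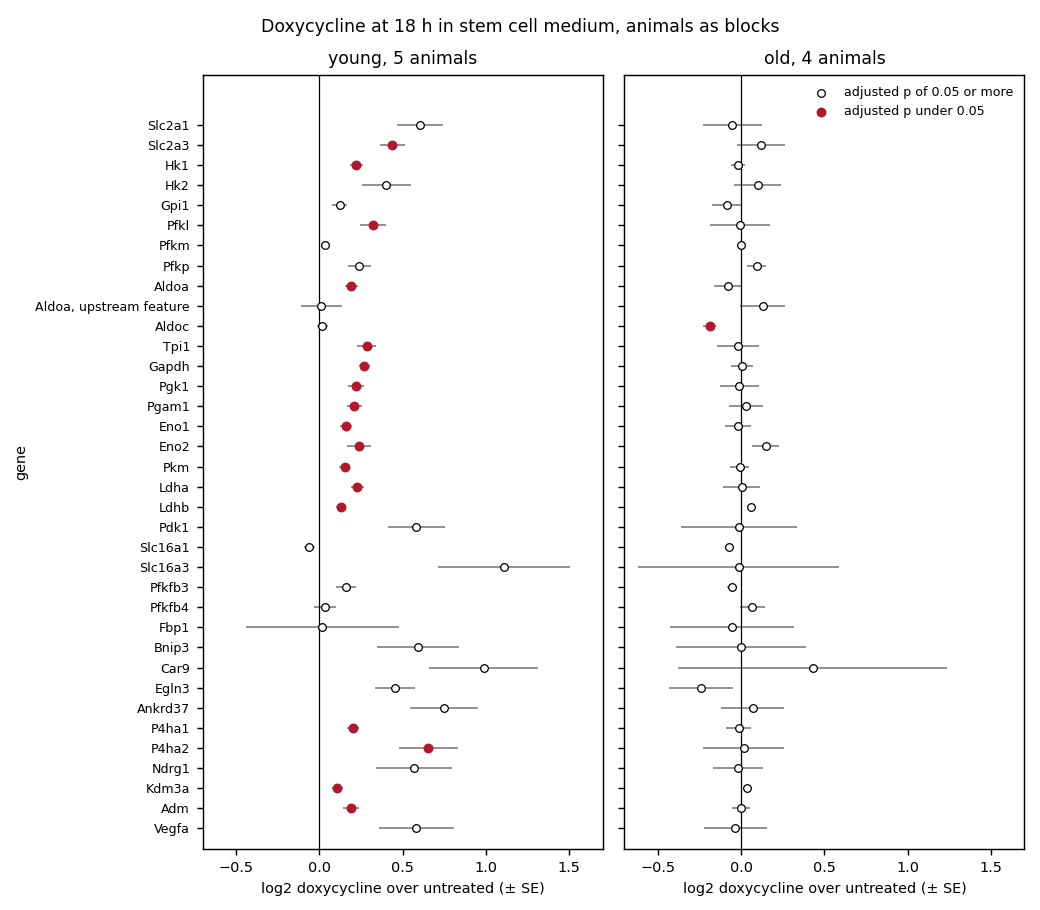
Log2 difference with doxycycline in stem cell medium at 18 h (horizontal axis, with SE bars) for each tested member (vertical axis), fitted with the animal as a block, young and old in separate panels. Filled points passed an adjusted p under 0.05: 17 in young cells, all above 0, and Aldoc below 0 in old cells.

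Some members carry reads that could belong elsewhere. Eno1 has the near-identical copy Eno1b, which took 711920 counts over the 65 libraries, and Aldoa has Aldoart1 (20437 counts) and Aldoart2 (2563 counts). Gpi1, Bnip3, Pfkp, Pfkm, Ankrd37, Gapdh, Aldoa, Ndrg1, Car9, Tpi1, Slc2a1, Hk1, Hk2, Pfkfb3 and Adm overlap a gene on the opposite strand. The partner had more counts than the member for Pfkp (Pitrm1, 572863 against 143237), Ankrd37 (Ufsp2, 184526 against 9861) and the second Aldoa entry (Fam57b, 589125 against 6475). It had fewer for Bnip3 (Gm45507, 124743 against 238410), Pfkm (Senp1, 283660 against 1136120) and Gpi1 (Gm26762, 628956 against 2864104). The same held for Ndrg1 (Gm17035, 3691 against 15117) and Gapdh (Iffo1, 259002 against 6535626). Whether counting used strand is not given in the sources used here. The second Aldoa entry (ENSMUSG00000114515) never exceeded 2.53 CPM.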

How the data were processed

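Poly(A) RNA of 65 libraries was made with a stranded kit and sequenced as paired reads in 1 pool over 3 lanes, per the labels' protocols. The submitters' processing notes name the build mm10 and, with no order or settings given in the sources used here, Subread, SAMtools, DESeq2 1.40.1, STAR 2.7.10b and Trim Galore 0.6.6. The authors deposited raw integer counts for 31057 features, used here as they stand, 31011 of which were matched to GENCODE M21. Small counts are mostly even (75644 values of 2, 19963 of 1), so a fragment usually adds 2 counts and counting error is larger than the totals imply. The median library held 86693655 counts. The deposited variance-stabilised log2 values were not used.

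The members and gene lists were chosen with earlier results of these data known. Each of 22 pairs of groups and 5 interactions was fitted with edgeR 4.0.16 in R 4.3.3 on the groups concerned (TMM scaling, robust quasi-likelihood test, genes kept by filterByExpr at 10 counts, Benjamini-Hochberg over the 16621 to 17726 genes tested). The fits were tested on simulated data. Alternatives were DESeq2 1.42.0, RLE scaling, no filter, the animal as a replicate block (sex for age) and leaving out each library. Library totals, fits without young animals 4 and 5 and the blocked leave-one-out and DESeq2 fits were chosen after seeing the data. Members were named, up to 6 per direction, by the largest called change with at least 5 CPM in the higher group and no overlap, and isoenzymes freely. For other lists the limit was 3 per direction. Other members are named with their role, chosen after their values were seen. Shares were compared with exact permutation tests.

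The labels give the animal of each library, so libraries of an age are paired: over 11567 genes with a mean of at least 500 counts, deviations from group means correlated within an animal by medians of 0.502 to 0.793 over 18 comparisons (lowest pair 0.232), against -0.182 or lower between animals. Deviations cancel out within a group, so the values between animals are made negative by the method and are no separate support for pairing. The labels state no model, so the block is the alternative. Each group holds 1 library per animal, so the spread is between animals.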

Additional observations from a re-analysis of the deposited data

Results flagged for a closer look

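In groups of 4 or 5 libraries, 29 of 539 tested sets of values had 1 library far from the rest, and chance gives about 1 in 20. Slc2a1 was high in old animal 1 at 18 h of differentiation (20.12 CPM) and in young animal 3 at 48 h (36.38 CPM). Hk2 was high in old animal 4 with doxycycline, at 26.25 CPM in stem cell medium at 18 h and 5.75 CPM at 6 h of differentiation. In the same 6 h libraries old animal 4 was also high for Pfkfb3 (15.7 CPM) and Ankrd37 (2.171 CPM), and without doxycycline for Pfkfb3 (16.27 CPM). Old animal 1 was high for Gpi1 (356.7 CPM) and Fbp1 (10.8 CPM) at 18 h, Tpi1 at 48 h (164.4 CPM), and, with doxycycline, Tpi1 (158.6 CPM) and Gapdh (717.9 CPM) at 18 h and P4ha2 at 48 h (0.2975 CPM).

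Old animal 2 was low at 6 h of differentiation for Slc2a3 (14.4 CPM), Pdk1 (19.02 CPM) and Fbp1 (10.52 CPM), and high for Aldoa at 48 h with doxycycline (474.8 CPM). Low values stood out for Ldha in old animal 1 in stem cell medium (722.8 CPM), Ldhb in old animal 4 at 6 h (291.1 CPM), Kdm3a in old animal 1 at 6 h (141.9 CPM), Hk1 in old animal 3 at 18 h (142.1 CPM) and Slc16a3 in young animal 1 at 18 h (0.9539 CPM). Bnip3 was low in young animal 3 at 18 h (26.3 CPM) and 48 h (31.36 CPM). Car9 stood out on a few counts, at 0.3493 CPM in old animal 4 at 48 h in stem cell medium with doxycycline, and at 48 h of differentiation at 0.0096 CPM (old animal 2, doxycycline), 0.0241 CPM (old animal 4) and 0.0235 CPM (young animal 3). Ndrg1 was at 5.925 CPM in young animal 4 at 48 h, with the other 4 at 0.305 to 1.33 CPM.

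With the animal as a block, effects that differed between ages by edgeR's test of the difference, old minus young, were the step from 18 to 48 h for Pkm (0.242, adjusted p = 0.0386), Ldha (0.376, adjusted p = 0.0424) and Pfkfb3 (-0.282, adjusted p = 0.0214), and the doxycycline effect for Aldoc (-0.209, adjusted p = 0.0486). Without the block edgeR called none of the 4, while DESeq2 called Ldha (0.37, adjusted p = 0.0297) and Pkm (0.23, adjusted p = 0.0462).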

How the results depend on the processing

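Single genes were followed over the alternative runs, with the comparisons of doxycycline against untreated left out. No called change among them reversed its direction in a run that gave the gene an adjusted p. In these, 5021 settings kept the call and 142 lost it, 10 of these without young animals 4 and 5. Counts of called members that moved by over 1.5 times were these. Where no share over all genes is given, here or above, a count shows only how far it moved and cannot be set against a background. DESeq2 called 2 members for age in stem cell medium (0 with edgeR), 4 for age at 6 h (1) and 2 for the age difference of the step from 18 to 48 h (0). With the animal as a replicate block the doxycycline counts were 17 in young stem cell medium, 1 in old stem cell medium, 1 at 6 h and 2 at 48 h of differentiation, against 0 each, and the stem cell medium step from 18 to 48 h had 18 against 11. The age differences had 3 (step from 18 to 48 h) and 1 (doxycycline effect), against 0. The block changed no other count by as much. DESeq2 with the block gave 23 (young), 1 (old, stem cell medium) and 2 (old, 48 h) for doxycycline. Without young animals 4 and 5 the young doxycycline count was 1, and 11 with the block. Leaving out 1 animal at a time from the blocked doxycycline fits gave 12, 18, 19, 14 and 8 in young (without animals 1 to 5), 1 to 3 in old stem cell medium, 0 to 2 at 6 h (0 without animal 1, 2 or 3) and 0 to 4 at 48 h (2, 4, 1 and 0 without animals 1 to 4). Leaving out 1 library at a time gave 0 to 1 for age in stem cell medium, 0 to 1 at 6 h, 4 to 11 at 18 h, 4 to 8 at 48 h, 9 to 16 for the step from 18 to 48 h in stem cell medium and 0 to 1 for the age difference of the last differentiation step. Without 1 library the age count in stem cell medium was 1 (young animal 2 or 3). Leaving out libraries or animals moved counts up as well as down, and why they moved was not tested. Car9, Fbp1 in stem cell medium and P4ha2 in most differentiation libraries rest on few counts. Ankrd37 was low, with group means of 0.659 to 4.94 CPM.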

Other observations

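In old cells under differentiation the response to doxycycline was counted animal by animal as in stem cell medium. At 6 h 15, 12, 12 and 30 of 36 members were higher with doxycycline in old animals 1 to 4, so animal 4 stood above the rest. At 18 h the counts were 19, 20, 17 and 18, and at 48 h 14, 25, 21 and 17. Old animals 1 and 4, which had 29 and 32 members higher in stem cell medium, had no such excess at 18 or 48 h of differentiation. These counts are descriptions of single pairs of libraries, have no count over all genes beside them and were not tested.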
